A study of Mus musculus with 12 samples.

Results

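The genes described here are 10 mouse genes whose RNA was lower in Foxp1-deleted than in control B cells, either at rest or after stimulation with IgM. They are Msrb3, Cdk5r1, Grasp, Serpinb7, Crisp3, Cldn10, Pmp22, Bdkrb1, Igf2bp3 and Rbm47, out of 18193 genes with a probe set of their own on the array. They were picked from the deleted-against-control differences in these same 12 arrays, so those differences are given as a description with no test. The response to IgM within each genotype was not used to pick them and is tested. It was measured on the same arrays, however. A control array that reads high by chance, or a deleted array that reads low, favours a gene's choice and also moves its IgM response. Shares of the 10 genes in the IgM comparisons are therefore a description.

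The cells were splenic B cells from mice of a mixed 129/Sv-C57BL/6 background, sorted on the surface protein B220. Control cells carried the genotype Foxp1wt/flox and deleted cells the genotype Foxp1flox/del, so that both groups held 1 conditional (flox) allele, beside a wt allele in control cells and a del allele in deleted cells. All cells were incubated for 4 h, either with addition of what the labels call IgM or without it, and each of the 4 groups had 3 arrays. No source used here gives the route by which the flox allele was recombined, the age of the mice or whether the replicates came from separate animals. The p-values therefore cover the spread among these arrays alone, which may be technical. Values are log2 signals of probe sets, the groups of short oligonucleotides with which an Affymetrix array reads a transcript. On this scale a difference of 1 is a doubling, and the lowest value the array gave was 2.23. Values near that floor have no order among themselves, and a change that starts or ends there is compressed.

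FOXP1 is a forkhead transcription factor needed for early B cell development and for the upkeep of mature follicular B cells. Engagement of the B cell receptor induces a rapid wave of transcription factors, feedback inhibitors and surface proteins and lowers the RNA of many genes of resting cells. The 10 genes do not belong to a single pathway. They encode an enzyme of oxidised protein repair, a kinase activator, a membrane scaffold, secreted or cytosolic proteins of the serpin and CAP families, proteins of cell junctions and membranes, a kinin receptor and RNA-binding proteins.

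None of the 8 probe sets of Foxp1 separated the genotypes clearly: their log2 differences, deleted minus control, ran from -0.29 to 0.13 at rest and with IgM from -0.30 to 0.32. It is not known whether any of them lies in the deleted exons, so they check nothing about the labels. Deleted IgM replicate 3 stood apart: it correlated at 0.817 to 0.865 with the other arrays of its group, against 0.951 or more for all other pairs within a group. Results that rest on it are therefore given with and without it. The label B cell fitted the arrays, since all 9 listed pan-B markers on the array lay above a log2 value of 4 on at least 3 arrays. Their summed level, on the log2 scale, was 16.47 to 16.51 in resting control and 16.41 to 16.46 in resting deleted cells. Markers of other blood cells moved with genotype. The summed level of 8 neutrophil markers was 8.17 to 11.26 in resting control and 11.36 to 14.19 in resting deleted cells, with Cxcr2 near the floor throughout, that is under 3 on every array. That of 11 macrophage and monocyte markers was 7.90 to 9.18 against 9.60 to 11.59, with C1qa, C1qb, C1qc, Fcgr1, Itgam and Mrc1 near the floor on every array. Adgre1, also on this list, went the other way. It was lower in resting deleted cells, with a log2 difference of -1.45 (deleted minus control). With IgM the neutrophil sum was 7.69 to 10.41 in control and 10.73 to 13.42 in deleted cells, and the macrophage sum 7.65 to 8.90 against 8.94 to 11.26. These sums were higher in deleted cells, whereas the 10 genes were lower there, and the part of such cells in the differences was not tested. The dendritic cell sum was 9.82 to 10.17 in resting control and 11.02 to 11.51 in resting deleted cells, with Xcr1 near the floor. With IgM it overlapped, at 9.75 to 10.34 in control and 9.14 to 10.49 in deleted cells. The NK cell sum overlapped at rest (8.37 to 10.81 in control and 9.80 to 11.46 in deleted cells) and with IgM (7.77 to 10.19 and 8.36 to 10.82). The erythroid sum was 6.72 to 7.11 in resting control and 7.41 to 11.1 in resting deleted cells. With IgM the erythroid sum was 6.48 to 6.68 in control and 7.11 to 9.36 in deleted cells. At rest the T cell sum was 10.94 to 11.64 in control and 10.29 to 11.22 in deleted cells, with Cd4, Cd8b1 and Thy1 near the floor. Among B cell subsets, the marginal zone sum overlapped between resting genotypes (12.94 to 13.34 and 12.83 to 13.15), and the B-1 sum was 10.94 to 11.11 in control and 11.25 to 11.36 in deleted cells. Some sums also moved with IgM, control cells first: the T cell sum to 8.25 to 9.49 and 7.45 to 9.48, the pan-B sum to 15.51 to 15.62 and 15.67 to 15.82, and the B-1 sum to 11.57 to 11.89 and 11.74 to 12.06. Their part in the responses to IgM was not tested. Of 8 stromal, endothelial and Schwann cell markers 7 lay near the floor on all arrays, and so did the keratin genes Krt5, Krt8, Krt14 and Krt19 among 7 epithelial markers. In cells sorted in bulk, fewer cells that express a gene and less RNA per cell cannot be told apart.

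Of the 10 genes, 7 were past the threshold of the genotype comparison without IgM, among the 0.818% of 9293 tested genes called lower there. With IgM 6 were past it, among the 0.129% called lower. The threshold was a Benjamini-Hochberg adjusted p of 0.05 in limma, a linear model with a spread estimate moderated across genes. Crisp3, Igf2bp3 and Cdk5r1 were called in both comparisons, and the other 7 genes in 1 of them. Next to the threshold with IgM, Crisp3 lay just inside with a log2 difference of -2.37 and Ly6k just outside with -2.61; without IgM the neighbours were Gdap10, inside with -1.53, and Galnt12, outside with -0.79. The 3 arrays of deleted cells lay below the 3 of control cells for 9 of the 10 genes without IgM, a separation that 8.55% of tested genes showed, and for all 10 with IgM, where 5.55% did. Since the genes were picked on these contrasts, nothing is read from these shares. The 9 include Pmp22, whose resting arrays lay near the floor, where values have no order. Its lowest control array read 2.291 and its highest deleted array 2.285. For Rbm47 at rest these were 4.03 and 3.97. The median log2 difference of the 10 was -2.12 without IgM, with single genes from -3.36 to -0.08. With IgM the median was -1.71, with single genes from -2.53 to -0.59.

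**Figure D1:**
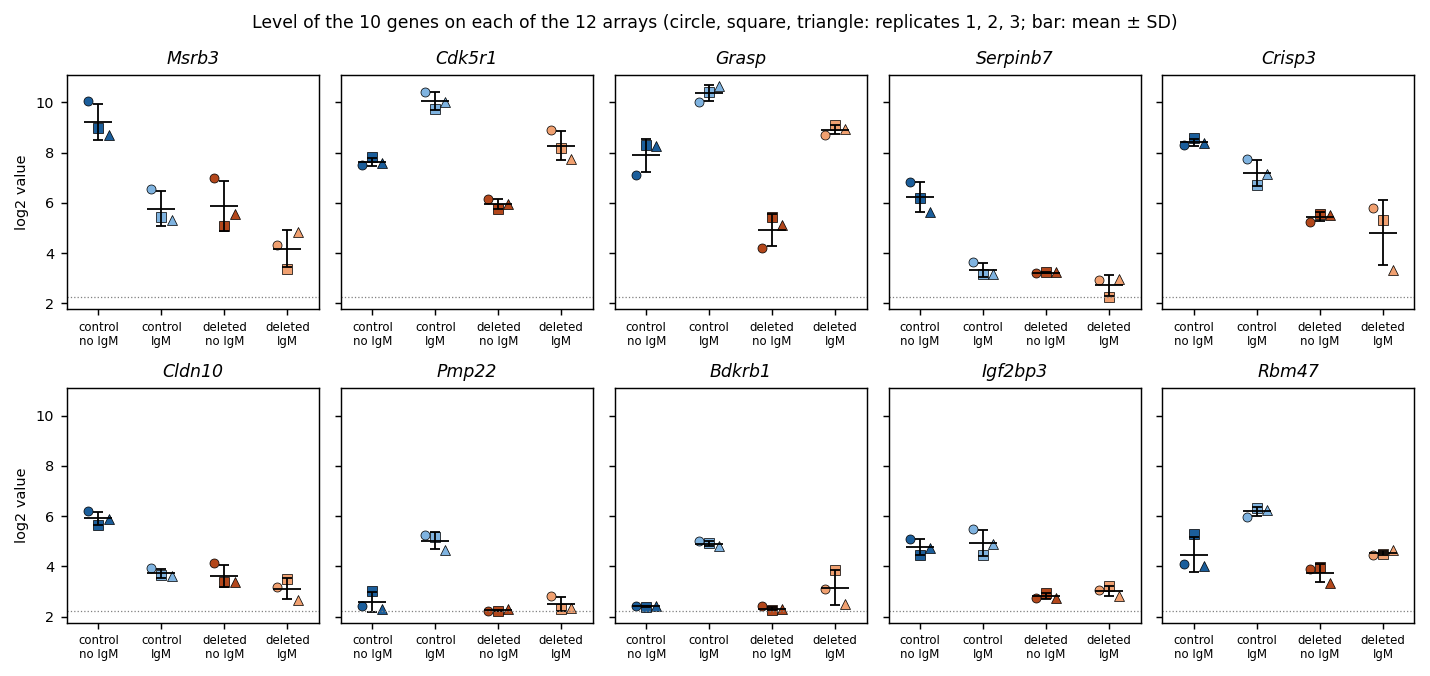
Log2 value (vertical axis) of each of the 10 genes on all 12 arrays, by group (horizontal axis), with circles, squares and triangles for replicates 1, 2 and 3, a bar for the mean ± SD and a dotted line at the array floor of 2.23. Msrb3, Serpinb7 and Cldn10 were highest in resting control cells, Pmp22 and Bdkrb1 in control cells with IgM, and Cdk5r1 and Grasp rose with IgM in both genotypes from a lower start in deleted cells.

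Some of these genes read low on every deleted array, and others were reduced from a higher level. Serpinb7, Pmp22, Igf2bp3 and Bdkrb1 read at or below 4 on all 6 deleted arrays, so these 4 genes passed the filter on low values through control arrays alone. Pmp22 and Bdkrb1 passed it only through control cells with IgM, and Serpinb7 only through resting control cells, as did Cldn10 but for 1 deleted array. Cdk5r1 and Grasp read above 4 on all 12 arrays, deleted ones included. All 10 genes had at least 1 probe set that passed the filter, a value above 4 on at least 3 arrays. They had 23 probe sets in all, of which 14 passed. Each gene is given below by its passing probe set with the highest mean.

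Msrb3, Serpinb7 and Cldn10 shared a pattern, highest in resting control cells and lower after IgM as well as in deleted cells. The sequence around their annotated start sites is therefore shown, with Cldn10 having 2 annotated starts. Each is 300 bases of RefSeq on GRCm38.p6, 250 before and 50 after the start, on the strand of the gene. The single capital letter within the last stretch marks the start base, and the longer run of capitals in Serpinb7 marks a match to the AP-1 motif TGANTCA. In order they are chr10:120898922-120899221 on the minus strand, chr1:107422439-107422738, chr14:118787621-118787920 and chr14:118854700-118854999 on the plus strand.
Msrb3: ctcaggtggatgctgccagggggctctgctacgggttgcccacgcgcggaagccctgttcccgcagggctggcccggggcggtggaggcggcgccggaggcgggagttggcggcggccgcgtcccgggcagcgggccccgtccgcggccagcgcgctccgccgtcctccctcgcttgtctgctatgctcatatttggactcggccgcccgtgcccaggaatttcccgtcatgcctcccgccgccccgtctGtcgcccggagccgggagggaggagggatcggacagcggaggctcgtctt
Serpinb7: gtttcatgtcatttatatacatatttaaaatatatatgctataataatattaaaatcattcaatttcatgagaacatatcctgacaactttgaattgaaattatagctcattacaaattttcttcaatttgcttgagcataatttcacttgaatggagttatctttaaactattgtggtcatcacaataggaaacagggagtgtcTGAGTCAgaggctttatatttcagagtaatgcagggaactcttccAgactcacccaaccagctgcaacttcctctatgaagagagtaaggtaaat
Cldn10 first start: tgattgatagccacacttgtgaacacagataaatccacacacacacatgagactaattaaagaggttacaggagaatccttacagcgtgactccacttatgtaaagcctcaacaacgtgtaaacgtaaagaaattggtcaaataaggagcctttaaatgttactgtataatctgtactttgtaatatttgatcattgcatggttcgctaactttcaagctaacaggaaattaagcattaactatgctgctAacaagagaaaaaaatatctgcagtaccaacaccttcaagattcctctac
Cldn10 second start: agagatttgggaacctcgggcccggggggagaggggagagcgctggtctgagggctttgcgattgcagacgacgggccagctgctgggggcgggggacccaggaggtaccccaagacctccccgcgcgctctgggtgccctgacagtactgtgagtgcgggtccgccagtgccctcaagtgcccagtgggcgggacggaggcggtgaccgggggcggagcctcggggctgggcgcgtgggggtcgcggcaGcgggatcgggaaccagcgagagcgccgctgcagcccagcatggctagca
The Msrb3 window and the second Cldn10 window hold 74% and 72% g and c, and the Serpinb7 and first Cldn10 windows 31.7% and 36%. The AP-1 match in Serpinb7 begins 45 bases before the start. Promoter windows were at hand for 8 of the 10 genes, 14 windows in all, and not for Cdk5r1 and Bdkrb1. Searched on both strands, TGANTCA occurred in 1 of the 14, that of Serpinb7, and in 7.81% of 32851 windows of the same length. The forkhead core GTAAACA occurred in 0 of the 14 and in 3.65% of all windows, and the cyclic AMP response element TGACGTCA in 0 and in 1.79%. Each motif was searched on its own; a match is a description of the letters, and windows of this length say nothing about sites farther away.

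Among the enzymes and signalling proteins, Msrb3 had the largest difference at rest. It encodes a methionine sulfoxide reductase, which returns oxidised methionine in proteins to its reduced form. Resting control cells read 10.05, 8.96 and 8.69 in replicates 1, 2 and 3, and resting deleted cells 7.0, 5.06 and 5.57. All control arrays lay above all deleted arrays, with means of 9.24 ± 0.72 and 5.88 ± 1.0 (SD, n = 3 each), a 10.3-fold lower level in deleted cells. After IgM, control cells read 6.56, 5.45 and 5.30 and deleted cells 4.33, 3.38 and 4.83. The IgM groups did not overlap either, and their means differed by -1.59 on the log2 scale, or by -1.92 without deleted IgM replicate 3. Resting deleted cells covered the range of control cells with IgM: the means of these groups were 5.88 and 5.77.

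Cdk5r1 encodes p35, the activator that the kinase CDK5 needs. Resting control cells read 7.50, 7.81 and 7.60 and resting deleted cells 6.14, 5.77 and 5.96, which left the groups well apart. With IgM control cells read 10.42, 9.75 and 10.01 and deleted cells 8.90, 8.20 and 7.75. The genotype difference was -1.68 on the log2 scale without IgM and -1.77 with it, or -1.51 with it when deleted IgM replicate 3 was left out. Deleted cells with IgM overlapped with resting control cells through deleted IgM replicate 3 alone, at 7.75. Without that array they lay above all resting control arrays.

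Grasp, also called tamalin, encodes a scaffold protein with a PDZ domain that binds cytohesins, exchange factors of ARF GTPases. Its level was 7.13, 8.29 and 8.25 in resting control cells and 4.20, 5.44 and 5.14 in resting deleted cells. With IgM it was 10.02, 10.43 and 10.65 in control and 8.72, 9.10 and 8.93 in deleted cells. All 4 groups stood apart from one another, in the order control with IgM, deleted with IgM, resting control and resting deleted. Deleted cells were lower by 2.97 ± 0.38 (SE, n = 3 per group) on the log2 scale at rest, 7.82-fold, and by 1.45 ± 0.38 with IgM, 2.73-fold.

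The secreted and cytosolic proteins were Serpinb7 and Crisp3. Serpinb7, or megsin, is a clade B serine protease inhibitor best known from skin and from mesangial cells of the kidney. Resting control cells read 6.82, 6.22 and 5.65, and resting deleted cells 3.21, 3.24 and 3.24. That difference was 8.0-fold, with the deleted arrays close to the array floor. With IgM the readings were 3.63, 3.16 and 3.16 in control and 2.94, 2.25 and 2.98 in deleted cells, all low. Resting deleted cells, at a mean of 3.23, again overlapped with control cells given IgM, at 3.32.

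Crisp3 encodes a cysteine-rich secretory protein of the CAP superfamily, found in neutrophil granules and exocrine glands. Resting control cells read 8.29, 8.58 and 8.38 and resting deleted cells 5.24, 5.56 and 5.54, a tight separation of 7.82-fold. In the presence of IgM, control cells read 7.73, 6.70 and 7.14, and deleted cells 5.78, 5.33 and 3.34. The lowest of these was deleted IgM replicate 3, and the genotype difference with IgM was -2.37 with that array and -1.63 without it. The summed neutrophil markers above were higher in deleted cells. The part of such cells in the level of Crisp3 was not tested.

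Among the membrane proteins, Cldn10 encodes a claudin, a pore-forming protein of tight junctions. Resting control cells read 6.20, 5.64 and 5.89, above the 4.13, 3.39 and 3.37 of resting deleted cells. With IgM control cells read 3.93, 3.65 and 3.61 and deleted cells 3.18, 3.5 and 2.68. All 6 of these last values lay under 4. Their groups differed by -0.61 on the log2 scale, or by -0.39 without deleted IgM replicate 3. Its probe set carries the suffix that marks probes shared between several transcripts, as do those of Igf2bp3 and Grasp given here.

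Pmp22 encodes a tetraspan protein known from the myelin of peripheral nerves and also made by many growth-arrested cells. At rest it read 2.42, 3.02 and 2.29 in control and 2.23, 2.24 and 2.28 in deleted cells, all near the floor. With IgM control cells read 5.27, 5.17 and 4.64, and deleted cells stayed at 2.81, 2.30 and 2.36. Control cells with IgM lay above every other array, and the genotype difference there was -2.53 ± 0.26 (SE, n = 3 per group), or 5.79-fold; without deleted IgM replicate 3 the log2 difference was -2.47.

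Bdkrb1 encodes the B1 kinin receptor, the inducible receptor for kinins trimmed by carboxypeptidases. At rest both genotypes were near the floor, at 2.41, 2.38 and 2.44 in control and 2.41, 2.27 and 2.29 in deleted cells. After IgM, control cells read 5.0, 4.93 and 4.80 and deleted cells 3.09, 3.87 and 2.50. The control arrays agreed closely and the deleted arrays spread more. The genotype difference with IgM was -1.76, or -1.43 without deleted IgM replicate 3, whose value was the lowest of the 3.

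The RNA-binding proteins were Igf2bp3 and Rbm47. Igf2bp3 is a fetal-type protein that binds and stabilises target mRNAs and is known from fetal lymphoid progenitors. It read 5.10, 4.46 and 4.74 in resting control and 2.75, 2.94 and 2.75 in resting deleted cells. With IgM the values were 5.48, 4.45 and 4.89 in control and 3.07, 3.21 and 2.82 in deleted cells. On this probe set the genotypes differed to nearly the same degree in both states. The differences were -1.96 ± 0.27 at rest and -1.91 ± 0.27 with IgM (SE, n = 3 per group). Without deleted IgM replicate 3 the difference with IgM was -1.80. The other probe sets of Igf2bp3, all dimmer, are given below.

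Rbm47 encodes an RNA-binding protein that takes part in splicing, in mRNA stability and, with APOBEC1, in C-to-U editing. At rest it read 4.11, 5.27 and 4.03 in control and 3.89, 3.97 and 3.32 in deleted cells, a small gap. With IgM control cells read 5.99, 6.33 and 6.25 and deleted cells 4.46, 4.49 and 4.64. The latter overlapped with resting control cells, and the genotype difference with IgM was -1.66, or -1.71 without deleted IgM replicate 3.

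**Figure D2:**
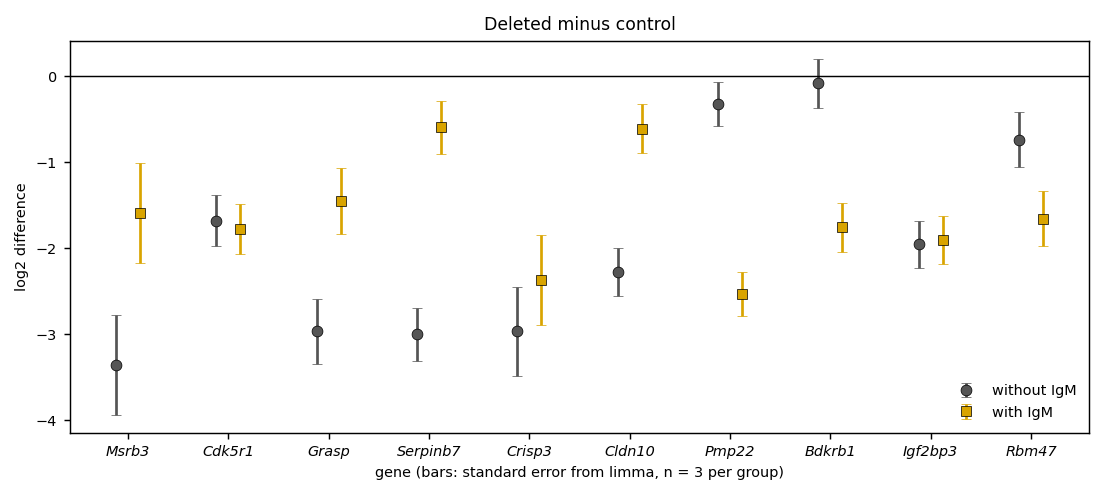
Log2 difference, deleted minus control (vertical axis), of each of the 10 genes (horizontal axis) without IgM (circles) and with IgM (squares), with standard errors from limma. The difference of Igf2bp3, Cdk5r1 and Crisp3 was large in both states, that of Msrb3, Serpinb7 and Cldn10 was larger at rest, and those of Pmp22 and Bdkrb1 were near 0 at rest and -2.53 and -1.76 with IgM.

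The next comparison asked how each gene responded to IgM. In control cells 6 of the 10 genes would have passed the filter without the higher of the groups compared, and of these Grasp, Cdk5r1 and Rbm47 rose and Msrb3 fell. That is 3 higher of 6, against 8.71% of tested genes, and 1 lower, against 12%. These shares are a description, since the same control arrays served the choice of the genes. Rbm47 was called lower in deleted cells only with IgM, which favours a high control reading there and so a rise. Msrb3 and Grasp were called only at rest, which favours a fall, yet Grasp rose. Cdk5r1 was called in both comparisons. Grasp rose by 2.48 ± 0.38 on the log2 scale, Cdk5r1 by 2.42 ± 0.29 and Rbm47 by 1.72 ± 0.32 (SE, n = 3 per group), with limma adjusted p of 0.00125, 0.000349 and 0.00357. Msrb3 fell by 3.46 (SE 0.58, limma adjusted p = 0.00202). In each of these 4 genes the arrays with IgM lay beyond those without it, which held upward for 21% and downward for 24.5% of tested genes.

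The other 4 genes, Pmp22, Bdkrb1, Serpinb7 and Cldn10, entered the tested set through the very group that was higher, so they had to differ in control cells and are not counted as support. Their log2 differences with IgM were 2.45 ± 0.26 for Pmp22, 2.51 ± 0.29 for Bdkrb1, -2.91 ± 0.31 for Serpinb7 and -2.18 ± 0.28 for Cldn10 (SE, n = 3 per group), with no overlap of groups. In a fit with no filter, over all 18193 genes, their limma adjusted p was 0.000697, 0.00124, 0.000983 and 0.00191. Leaving out the filter does not undo the choice of the genes on these same control arrays, so these values are no support either.

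Crisp3 and Igf2bp3 did not pass in control cells. For Crisp3 the change was -1.22 on the log2 scale, with an SE of 0.52 (limma adjusted p = 0.129), and all its control arrays with IgM lay below those without. Without deleted IgM replicate 3, whose spread enters the shared estimate, the same difference had a limma adjusted p of 0.00431 (range over all alternatives 0.00051 to 0.642). Igf2bp3 differed by 0.17 ± 0.27 (limma adjusted p = 0.754), with overlapping groups.

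In deleted cells 2 of the 10 genes rose with IgM, against 9.78% of tested genes, and 0 fell, against 9.21%. At an unadjusted p under 0.05 in limma 4 were higher and 1 lower. These shares, here and under the alternatives below, are a description, since the same deleted arrays served the choice of the genes. Grasp was called lower in deleted cells only at rest, which favours a low deleted reading there and so a rise. Cdk5r1 was called in both comparisons. Cdk5r1 rose by 2.33 ± 0.29 and Grasp by 4.00 ± 0.38 (SE, n = 3 per group), with limma adjusted p of 0.000513 and 0.000113. The rise of Grasp was 15.9-fold in deleted and 5.57-fold in control cells, from a lower start. Among the genes that were lower with IgM in control cells, the difference in deleted cells was -1.70 ± 0.58 for Msrb3, -0.51 ± 0.31 for Serpinb7 and -0.51 ± 0.28 for Cldn10 (SE, n = 3 per group; limma adjusted p = 0.0647, 0.284 and 0.237). Serpinb7 and Cldn10 read 3.21 to 3.24 and 3.37 to 4.13 in resting deleted cells, not far above the floor of 2.23. Among those that were higher there, Pmp22 differed by 0.24 ± 0.26, Bdkrb1 by 0.83 ± 0.29 and Rbm47 by 0.80 ± 0.32 (SE, n = 3 per group; limma adjusted p = 0.549, 0.069 and 0.109). Crisp3 and Igf2bp3 differed by -0.63 and 0.22 (limma adjusted p = 0.431 and 0.609), and the difference of Crisp3 was 0.11 without deleted IgM replicate 3. Whether a response differed between the genotypes was not tested, because that difference is made of the contrasts on which the genes were picked.

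Several responses of deleted cells lay close to the threshold. With the replicate number as a block, Msrb3 fell (limma adjusted p = 0.00728, range over all alternatives 0.00728 to 0.262), and Bdkrb1 (0.0342, range 0.000261 to 0.474) and Rbm47 (0.0456, range 0.0362 to 0.334) rose by limma's adjusted p. In all, 4 of the 10 were higher and 1 lower with the block, against 17.3% and 19.3% of tested genes. With array weights, limma's adjusted p in deleted cells was 0.00997 for Msrb3, 0.000261 for Bdkrb1 and 0.0243 for Serpinb7 (range for Serpinb7 0.0243 to 0.765). Without deleted IgM replicate 3 the responses of Msrb3 and Bdkrb1 were -2.02 and 1.16 (limma adjusted p = 0.0425 and 0.00302), giving 3 higher and 1 lower gene against 12.9% and 12.8% of tested genes. Without control unstimulated replicate 2 Rbm47 had a limma adjusted p of 0.0362 in deleted cells. When all arrays of replicate 2 were left out, Cdk5r1 in deleted cells and Msrb3 and Grasp in control cells lost their call (limma adjusted p = 0.0606, 0.0586 and 0.0526), as did Rbm47 in control cells without those of replicate 1 (limma adjusted p = 0.0868).

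**Figure D3:**
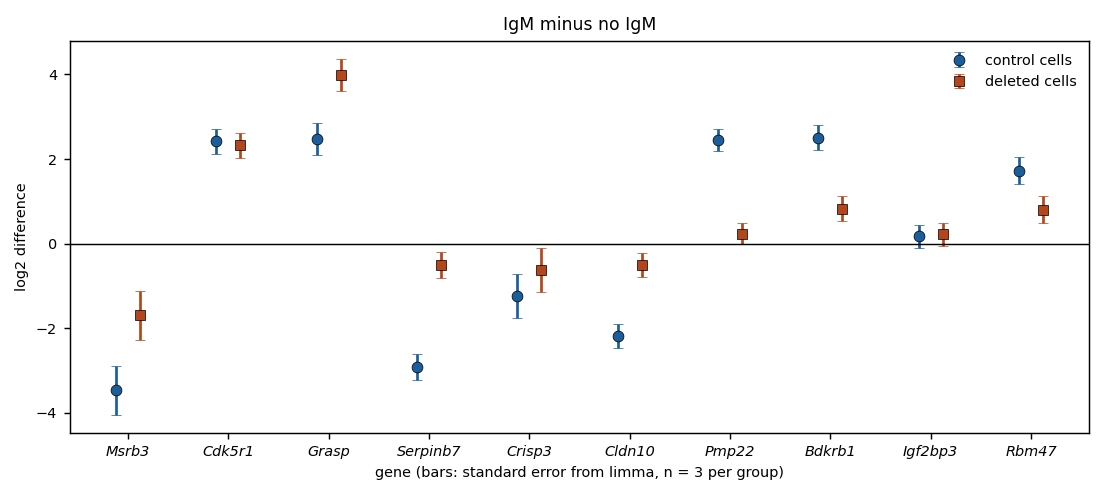
Log2 difference, IgM minus no IgM (vertical axis), of each of the 10 genes (horizontal axis) in control cells (circles) and deleted cells (squares), with standard errors from limma. Cdk5r1 and Grasp were the genes of the 10 called in both genotypes, with rises of 2.42 and 2.48 in control and 2.33 and 4.00 in deleted cells.

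The genes thus fell into sets by their IgM response in control cells, a division made after the values were seen. Msrb3, Serpinb7 and Cldn10 were highest in resting control cells, and their levels correlated with each other at a Pearson r of 0.931 to 0.951 over the 12 arrays. The 5 genes that were higher with IgM in control cells correlated at 0.708 to 0.93, and the correlations between the sets ran from -0.389 to -0.084. These arrays share groups and replicate numbers, so the coefficients are a description and carry no p. The sets were divided by the IgM response on these same arrays. High coefficients within a set and low ones between sets therefore follow in part from the division. Serpinb7, Cldn10, Pmp22 and Bdkrb1 also entered the tested set through the group in which they were highest. Their place in a set was thus favoured by the filter, and the coefficients are no support for the sets.

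The genes whose pattern over the 12 arrays was most like each member were found by Pearson r, with no p. Tspan17 was among the closest for Msrb3, Serpinb7 and Cldn10 (0.963, 0.961 and 0.944), followed or joined by Emc9 for Msrb3 (0.959) and Cldn10 (0.954) and by Lca5 for Serpinb7 (0.957). Crisp3 was nearest to the cytokine gene Il6 (0.936) and to Cenps (0.934). Grasp was nearest to the immediate early gene Nr4a2 (0.984) and the phosphatase gene Dusp4 (0.981), and Cdk5r1 to Cth (0.984) and Marchf3 (0.978). Dusp22 was close to both Pmp22 (0.92) and Bdkrb1 (0.954), beside Apold1 for Pmp22 (0.914) and Fam241a for Bdkrb1 (0.958). Rbm47 followed Actn1 (0.973) and Cish (0.928), and Igf2bp3 followed Crem (0.913) and Dusp14 (0.908). The order among the closest genes depends on deleted IgM replicate 3: over the 11 other arrays the coefficients were 0.896 to 0.986, and Il6 came in place 6 for Crisp3, Nr4a2 and Dusp4 in places 10 and 6 for Grasp, Apold1 in place 8 for Pmp22, Cish in place 7 for Rbm47 and Tspan17 in place 5 for Cldn10. The other named genes held places 1 to 4. Most of the named genes were themselves called lower in deleted cells. Those were Tspan17, Emc9, Lca5, Il6, Nr4a2, Dusp4, Cth, Marchf3, Crem and Dusp14 at rest, and Dusp22 with IgM. Cenps, Apold1, Fam241a, Actn1 and Cish were not. Likeness to the called genes therefore repeats in part the genotype difference on which the 10 genes were picked.

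Other probe sets of the same genes were read for the genotype difference as a description. All 14 passing probe sets of the 10 genes had a lower mean in deleted cells in both states. The 14 include the probe set by which each gene is given above and was picked, so nothing is read from this count. The remaining ones read Cdk5r1 and Grasp. The second probe set of Cdk5r1 differed by -1.38 without and -1.35 with IgM, and that of Grasp by -1.89 and -1.35, with no overlap of groups. The third ones of these genes were dimmer, with differences of -0.37 and -1.10 for Cdk5r1 and -0.37 and -2.14 for Grasp, with overlapping groups. In a fit over every passing probe set, the second probe set of Grasp rose with IgM by 2.16 in control and 2.70 in deleted cells (limma adjusted p = 0.000455 and 0.000184), and that of Cdk5r1 by 2.22 and 2.26 (limma adjusted p = 0.00137 and 0.00152). The third probe set of Cdk5r1 rose by 2.19 in control cells (limma adjusted p = 0.0165) and differed by 1.47 in deleted cells (limma adjusted p = 0.0866). For Grasp the third rose by 2.24 in control cells (limma adjusted p = 0.019) and differed by 0.47 in deleted cells (limma adjusted p = 0.607), so its probe sets disagree on the size of the response there. Of the 9 probe sets that did not pass, 5 read Igf2bp3, 2 Rbm47 and 1 each Msrb3 and Cdk5r1. Those of Igf2bp3 differed between genotypes by -0.68, -0.57, -0.43, -0.16 and -0.03 at rest. With IgM, in the same order, they differed by -1.28, -1.08, -0.48, -0.68 and -0.19. The second probe set of Msrb3 was at the floor in all groups except resting control cells (mean 3.33), where its main probe set was highest too.

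Relatives and partners of these genes were read from 9 lists with 131 entries, of which 51 genes other than the 10 were measured. Over these 51 genes, 5 rose and 9 fell with IgM in control cells, against 8.71% and 12% of tested genes, and 6 rose and 8 fell in deleted cells, against 9.78% and 9.21%. With the replicate block 9 rose and 14 fell in control cells and 11 rose and 18 fell in deleted cells. Between genotypes 5 were higher and 0 lower in deleted cells at rest, against 2.03% and 0.818% of tested genes, and 3 higher and 0 lower with IgM, against 1.59% and 0.129%. At an unadjusted p under 0.05 in limma 3 of the 51 were lower at rest and 1 with IgM, and with the replicate block 6 were higher and 1 lower at rest and 8 higher and 0 lower with IgM. The median log2 difference of all tested genes was 0.003 without IgM and 0.08 with it, and the IgM response had a median of -0.05 in control and -0.08 in deleted cells.

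In the list of methionine sulfoxide reductases and thioredoxins, none of the 9 other measured genes was called between genotypes (limma, median log2 difference -0.01 at rest and -0.21 with IgM). At an unadjusted p under 0.05, 2 were lower at rest and 1 with IgM, and with the replicate block 1 was lower at rest. In control cells with IgM, the mitochondrial reductase gene Msrb2 had a log2 change of -1.42 (SE 0.28; limma adjusted p = 0.0118 with no filter), but it passed the filter mainly through resting control cells, with 1 array above 4 outside them. The thioredoxin reductase genes Txnrd3 and Txnrd1 rose in control cells by 1.64 and 1.26 and in deleted cells by 2.51 and 1.78 (limma adjusted p = 0.00227, 0.0159, 0.000284 and 0.00313). The list had 2 rises and 1 fall in control cells (median 0.56) and 2 rises and 0 falls in deleted cells (median -0.21), where 3 were lower at an unadjusted p under 0.05 in limma.

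Among 4 other measured clade B serpins limma called 0 between genotypes (median 0.14 at rest and -0.37 with IgM), with 1 higher in each state at an unadjusted p under 0.05. In control cells with IgM Serpinb6b rose by 1.67 and Serpinb9, an inhibitor of granzyme B, by 1.17 (limma adjusted p = 0.00296 and 0.0494), opposite to Serpinb7, and in deleted cells 0 were called, with 1 higher and 1 lower at an unadjusted p under 0.05. With the replicate block 2 rose and 1 fell in deleted cells, namely Serpinb6b, Serpinb9 and Serpinb6a (limma adjusted p = 0.0122, 0.0479 and 0.0342), and Serpinb1a was higher in deleted cells with IgM (0.0107). The list medians were 0.37 and 0.49. Of 2 other CAP proteins Glipr2 fell by 0.67 on the log2 scale with IgM in control cells (limma adjusted p = 0.0474), 0 were called in deleted cells, and 0 between genotypes, where 1 was higher with IgM at an unadjusted p under 0.05 (medians -0.52, -0.24, 0.34 and 0.62 in that order, with rest before IgM for the genotypes). Of 29 listed claudins and tight junction genes 28 were on the array, and only 4 besides Cldn10 were measured. None of these 4 was called in any of the 4 comparisons by limma (medians -0.54 and -0.06 for IgM in control and deleted cells, 0.39 and 0.62 for genotype). At an unadjusted p under 0.05, 1 was higher and 1 lower with IgM in control cells, 1 lower in deleted cells, and 1 higher in deleted cells in each state. In the fit with the replicate block 1 rose and 1 fell with IgM in each genotype and 1 was higher in resting deleted cells.

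In the family of Pmp22, 2 of 4 other measured members were higher in resting deleted cells. Emp2 was higher by 2.75 ± 0.30, at 4.29 ± 0.14 (SD, n = 3) in control and 7.04 ± 0.65 in deleted cells, and Emp1 by 1.81 ± 0.37 (SE, n = 3 per group; limma adjusted p = 0.000564 and 0.0247). Both encode epithelial membrane proteins of the same tetraspan family. With IgM limma called 0 of the 4 between genotypes, and 2 were higher at an unadjusted p under 0.05; with the replicate block Emp1 was higher (limma adjusted p = 0.00583). The block also called Emp1 higher and Emp3 lower with IgM in both genotypes. In deleted cells Emp2 fell by 1.71 with IgM (limma adjusted p = 0.00293), and in control cells 0 were called, with 1 higher at an unadjusted p under 0.05. List medians were 1.29 and 0.54 for genotype at rest and with IgM, and -0.11 and -1.03 for IgM in control and deleted cells. The call of Emp1 was lost when any 1 of 5 resting arrays was left out, namely deleted replicates 1 and 2 and all 3 control replicates (limma adjusted p = 0.0505 to 0.113).

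Among kinin enzymes, Cpm encodes carboxypeptidase M, which trims kinins into ligands of the B1 receptor. It was higher in deleted cells, by 1.86 ± 0.28 at rest and 1.80 ± 0.28 with IgM (SE, n = 3 per group; limma adjusted p = 0.00381 and 0.00994), while Bdkrb1 was lower with IgM. Without control IgM replicate 3 the difference of Cpm with IgM had a limma adjusted p of 0.057. Cpm fell with IgM, with log2 changes of -2.43 in control and -2.49 in deleted cells, and the kallikrein gene Klk1 rose by 1.5 and 1.73 (limma adjusted p = 0.000239, 0.00028, 0.0019 and 0.001). A different probe set of Klk1, the one with the largest variance, gave -0.49 and -1.66, so the direction of Klk1 is uncertain. The aminopeptidase gene Xpnpep1 rose by 0.73 in deleted cells (limma adjusted p = 0.0313). Of the 4 other measured genes of this list, 1 rose and 1 fell in control cells, 2 rose and 1 fell in deleted cells, and Cpm was the one called between genotypes (medians 0.12, 0.26, 0.32 and 0.46).

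Among partners of Grasp, 2 of 10 other measured genes were higher in deleted cells in both states. Ipcef1, which encodes a protein that interacts with cytohesins, was higher by 3.15 ± 0.24 at rest and 2.65 ± 0.24 with IgM (limma adjusted p = 5.31e-05 and 0.000761). Frmd4a, which encodes a FERM-domain scaffold that binds cytohesins, was higher by 3.75 ± 0.41 and 2.82 ± 0.41 (SE, n = 3 per group each; limma adjusted p = 0.000566 and 0.00699). With IgM Ipcef1, Cyth4 and Cyth1 fell in control cells, with log2 changes of -1.83, -1.35 and -1.31 (limma adjusted p = 0.000529, 0.00241 and 0.00599). Ipcef1, Frmd4a and Cyth4 fell in deleted cells, with log2 changes of -2.33, -1.39 and -1.13 (limma adjusted p = 0.000183, 0.0359 and 0.00745). Frmd4a read above 4 on 7 arrays, so it passed the filter mainly through deleted cells, and its limma adjusted p with no filter was 0.00488 at rest and 0.0372 with IgM. The replicate block added Cyth4 as higher in deleted cells with IgM (limma adjusted p = 0.0474). List medians were 0.12 and -0.01 for genotype at rest and with IgM, and -0.31 and -0.56 for IgM in control and deleted cells.

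**Figure D4:**
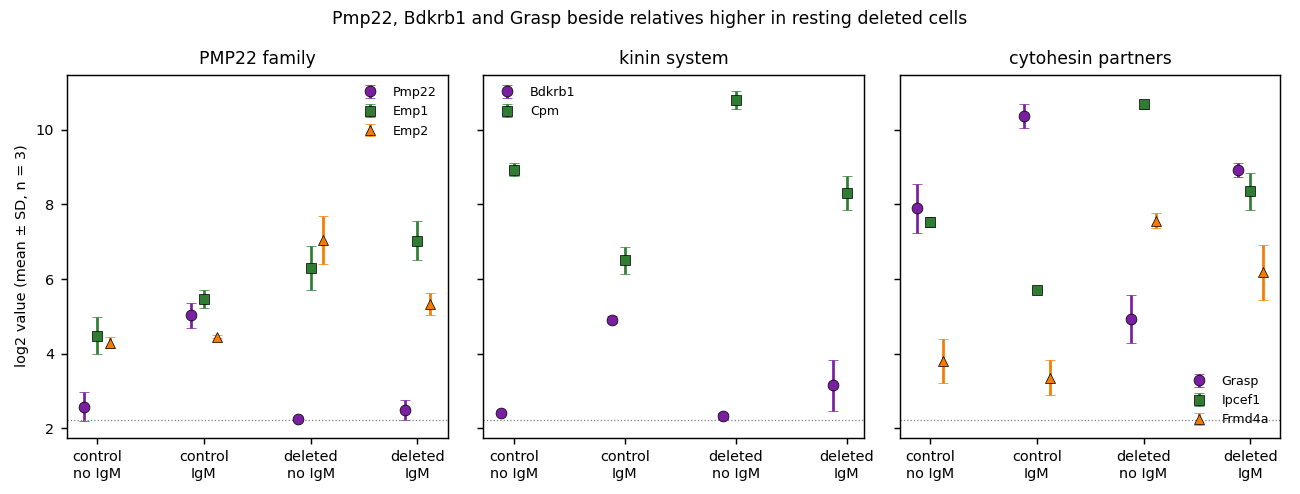
Mean log2 value ± SD of 3 arrays (vertical axis) in the 4 groups (horizontal axis) for Pmp22 with Emp1 and Emp2, Bdkrb1 with Cpm, and Grasp with Ipcef1 and Frmd4a, with a dotted line at the array floor. Within each gene the groups can be compared, while levels of different genes cannot, and in resting deleted cells Emp2, Cpm, Ipcef1 and Frmd4a sat above their control level, by 2.75, 1.86, 3.15 and 3.75.

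Among partners of Cdk5r1, 0 of 11 other measured genes of the CDK5 list were called between genotypes by limma (medians -0.02 at rest and 0.32 with IgM), with 1 lower at rest and 2 higher with IgM at an unadjusted p under 0.05. With the replicate block Capn1 was higher in deleted cells with IgM (limma adjusted p = 0.0276). With IgM in control cells the calpain genes Capn1 and Capn2, whose products cleave p35, fell, with log2 changes of -1.86 and -1.57 (limma adjusted p = 0.00355 and 0.00682). In deleted cells Cables1 rose by 2.26, while Cdk5 and Capn1 fell, with changes of -1.91 and -1.25 (limma adjusted p = 0.00315, 0.0422 and 0.0284). Without deleted IgM replicate 3 the change of Cdk5 was -1.07. List medians were -0.35 in control and 0.01 in deleted cells. In the list of RNA-binding proteins, 0 of 3 others were called between genotypes by limma (medians -0.25 and 0.23), with 1 higher with IgM at an unadjusted p under 0.05, and with the replicate block Apobec1 was higher there (limma adjusted p = 0.0349). Apobec1, which encodes the editing enzyme that RBM47 assists, fell with IgM, with a log2 change of -2.02 in control and of -1.67 in deleted cells (limma adjusted p = 0.000394 and 0.00131), while Rbm47 rose in control cells. Syncrip rose in deleted cells by 1.32 (limma adjusted p = 0.0118), and the list medians were 0.48 and 0.81.

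Several of these relatives lost their call when a single array was left out. Those were Txnrd1 in control cells for 2 of the 12 arrays (limma adjusted p = 0.0659 to 0.0666), Serpinb9 for 9 (0.0546 to 0.168) and Glipr2 for 10 (0.0548 to 0.185). In deleted cells they were Syncrip for 1, deleted unstimulated replicate 1 (limma adjusted p = 0.0541), Cdk5 for 9 (0.0522 to 0.138), Capn1 for 4 (0.0525 to 0.11), Xpnpep1 for 4 (0.0553 to 0.111) and Frmd4a for 7 (0.0509 to 0.105).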

How the data were processed

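RNA of sorted splenic B cells was measured on 12 one-colour Affymetrix arrays, 4 groups of 3. The deposited values are log2 signals per probe set from GCRMA; that the authors used it is taken from the submitters' processing notes, and its version is not given in the sources used here. GCRMA subtracts a background modelled from probe sequence, which piles dim probe sets at the floor, and scales arrays to a common distribution, so values are relative. Precision is limited by having 3 arrays per group.

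Of 45101 probe sets, 34945 had 1 gene in the platform annotation; 932 named several and 9160 none, and neither of these was used. Symbols of 34741 were set through the gene identifier. Probe sets had to exceed 4 (log2) on 3 or more arrays, which 19187 did, and where a gene had several of these, the one with the highest mean was used (9293 genes). One limma 3.58.1 model (R 4.3.3) over the 4 groups gave the 4 contrasts, with Benjamini-Hochberg adjusted p over all genes. On simulated data, 9293 genes in the IgM contrast of control cells, it recovered 26.9%, 74.6% and 95.5% of changes of 1, 2 and 3 on the log2 scale with 10 false calls. The simulated noise was independent between arrays, with the same spread on all arrays of a gene. It held no deviations shared by replicate number and no array that stood apart, so these rates need not hold for the real arrays. Deviations of same-numbered arrays correlated at 0.174 to 0.847, while the sample titles give a replicate number alone. The main model held no replicate block, so its p-values leave this sharing out. Counts and changed calls with the block are given as an alternative. Scaling alternatives moved the median of all genes by less than 0.1. Relatives were named from each list by size of change among called genes, up to 3 per IgM and 2 per genotype comparison. The genes and lists were chosen with earlier results of these data known.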

Additional observations from a re-analysis of the deposited data

How the results depend on the processing

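Member responses to IgM kept direction and side of the threshold in 472 of 494 recomputations; 4 lost and 15 gained a call, and 3 turned sign. Those were Igf2bp3 in control cells without control IgM replicate 1 (-0.10) and Crisp3 in deleted cells without deleted IgM replicate 3 (0.11) or without replicate 3 (0.16). Over all omissions of arrays, Igf2bp3 ran from -0.10 to 0.42 and Crisp3 from -1.22 to 0.16. The genotype differences of the 10 genes kept their sign in 494 of 494. The genes were picked on these differences in the same arrays, so nothing is read from that count. It includes Pmp22 and Bdkrb1 at rest, where their values lay near the floor and have no order. Klk1 gave -0.49 and -1.66 with the largest-variance probe set. The number of genes called with IgM in control cells was 1920, with IgM in deleted cells 1765, between genotypes 265 at rest and 160 with IgM. With the replicate number as a block they were 3299, 3408, 640 and 628, and with array weights 3899, 3431, 845 and 652. With only the 2 groups compared, IgM in deleted cells gave 540 and genotype with IgM gave 0 by limma (731 at an unadjusted p under 0.05); without a filter the latter was 98. Leaving out 1 array gave 1235 to 3356, 1021 to 2390, 133 to 551 and 46 to 218, and leaving out 1 replicate number 290 to 2665, 190 to 2244, 30 to 374 and 0 to 115 (the 0, without replicate 2, had 699 at an unadjusted p under 0.05). The cause was not tested. The block ended no call of the 10 genes. A filter at a log2 value of 5 on at least 3 arrays left no value for Pmp22, Igf2bp3 and Bdkrb1.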
